A study of Homo sapiens with 14 samples.

Results

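The 5S ribosomal RNA genes encode the smallest RNA of the large ribosomal subunit, and their occupancy by the progesterone receptor (PR) and by POLR3A, the biggest of the subunits of RNA polymerase III, was read from chromatin immunoprecipitation sequencing of T47D cells. The members were all genes of chromosomes 1 to 4 in the RefSeq table of GRCh38 whose symbol is RNA5S and a number, the 5S array, or RNA5SP and a number, the 5S pseudogenes. They came to 161 of the 58419 genes of the table on chromosomes 1 to 22 and X, with 17 array copies and 144 pseudogenes. Of the pseudogenes, 51 lie on chromosome 1, 39 on chromosome 2, 29 on chromosome 3 and 25 on chromosome 4.

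T47D is an established human breast cancer line, positive for the oestrogen receptor and for PR. All groups were this line, exposed for 1 h either to ethanol as vehicle or to progesterone (P4), after which chromatin was fragmented by sonication, per the labels. Each antibody under each treatment had 3 replicate libraries, and each treatment had 1 pooled input, which makes 14 libraries. The deposited values were 4 peak lists, 1 per group, so no value could be set against the spread between replicates and no difference was tested.

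A list gives each enriched region's ends, its summit, the authors' fold enrichment over background and the authors' −log10 q, a score of confidence that rises as the q-value falls. On chromosomes 1 to 22 and X the lists held 29161 regions for POLR3A under vehicle, 47904 for POLR3A under P4, 38933 for PR under vehicle and 111515 for PR under P4. The lists hold no read counts, so the depth behind a value is unknown. Scores of different lists are given side by side and do not measure a change. A member was counted when a region overlapped the gene body or came within 100 bp of it.

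RNA polymerase III transcribes 5S RNA from a promoter that lies inside the gene. The zinc finger factor TFIIIA binds there first, TFIIIC binds on top of it, and TFIIIB, which holds BRF1, BDP1 and TBP, then brings in the polymerase. The 5S RNA is bound by the La protein when new and later by the ribosomal proteins RPL5 and RPL11, with which it enters the ribosome. The genome also carries many scattered 5S copies with altered sequence, the pseudogenes. PR is a nuclear receptor that binds DNA directly at progesterone response elements or through other factors.

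The array lay on chromosome 1 from 228610266 to 228646158 (GRCh38), a span of 35893 bp. Each copy is 121 bp long, and the starts of neighbouring copies were 2215 to 2242 bp apart, with a median of 2241 bp. Most of each repeat unit is therefore spacer, the stretch between 2 genes. RNA5S17, the copy at the high end, lies inside the span of the protein-coding gene RHOU, which encodes a small GTPase. The copies are near-identical, the labels do not say how reads that fit several copies were placed, and a value given for a copy may hold reads of others.

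POLR3A occupied every array copy in both lists. All 17 copies had a POLR3A region under vehicle and all 17 under P4. Among the 1714 other genes of at most 200 bp on chromosomes 1 to 4, 7.58% had a POLR3A region under vehicle and 7.29% under P4, and without the 98 tRNA genes among them the shares were 3.28% and 3.4%. The tRNA genes alone, which RNA polymerase III also transcribes, stood at 78.6% and 71.4%. The array share of 100% is a count over copies that may share reads, not over independent loci.

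The POLR3A regions at the copies ranked near the top of each list. Under vehicle their −log10 q ran from 174.6 to 334.4 with a median of 301.5, and the median copy lay at percentile 99.4 of all regions of the list. Under P4 it ran from 140.5 to 308.6 with a median of 281.5, at percentile 99.6. Every copy was above percentile 99.2 of the vehicle list and 99.5 of the P4 list.

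The copies did not score alike. RNA5S9, RNA5S15 and RNA5S16 had the 3 lowest −log10 q in both lists. RNA5S9 stood at 174.6 under vehicle and 140.5 under P4. RNA5S15 stood at 187.1 and 171.3, and RNA5S16 at 213.6 and 192.4. The other 14 copies lay at 276.8 or more under vehicle and at 261.5 or more under P4, so these 3 were set apart from the rest in each list. RNA5S4 had the highest vehicle value, 334.4, with 307.0 under P4. RNA5S5 had the highest P4 value, 308.6, with 276.8 under vehicle. RNA5S1 and RNA5S14 carried the same fold and the same −log10 q in the P4 list, 14.0 and 281.5.

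Fold enrichment told the same copies apart only in part. It ran from 12.2 at RNA5S9 to 18.9 at RNA5S7 under vehicle, with a median of 15.5, and from 9.69 at RNA5S9 to 16.6 at RNA5S7 under P4, with a median of 14.0. RNA5S16, low by −log10 q, had folds of 15.8 and 13.6, close to the medians. At the tRNA genes of chromosomes 1 to 4 with a POLR3A region the median fold was higher, 29.5 under vehicle and 31.7 under P4, while their median percentile by −log10 q was 99.3 and 99.6, about that of the array.

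**Figure D1:**
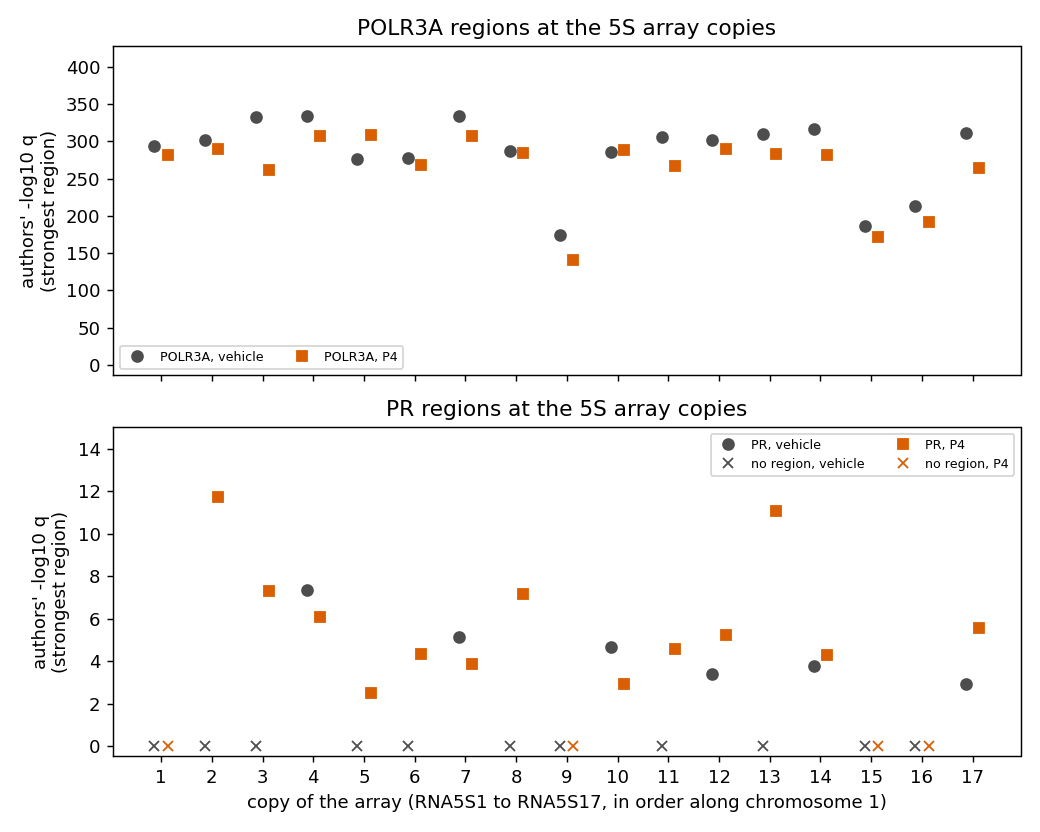
The authors' −log10 q of the strongest region at each of the 17 array copies, in order along chromosome 1, for POLR3A (upper) and PR (lower) under vehicle (grey circles) and P4 (orange squares); crosses at 0 mark copies with no region. RNA5S9, RNA5S15 and RNA5S16 sit lowest for POLR3A and have no PR region in either list.

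POLR3A summits sat on the genes. The summit lay inside the gene body at 16 of 17 copies in each list, and its median distance from the gene's midpoint was 15 bp under vehicle and 8 bp under P4. The exception was RNA5S9, with its summit 93 bp above the midpoint under vehicle and 90 bp above it under P4. Here "above" and "below" mean toward higher and lower coordinates, since the gene table gives no strand. The regions were wide, with a median of 718 bp under vehicle and 616 bp under P4, against 280 and 276 bp for all regions of those lists. The widest was the vehicle region over RNA5S1, 1966 bp.

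PR was found at fewer copies and with low scores. It was counted at 6 of 17 copies under vehicle (RNA5S4, RNA5S7, RNA5S10, RNA5S12, RNA5S14 and RNA5S17), 35.3%, and 13 of 17 under P4, 76.5%. Under P4 the regions at RNA5S3, RNA5S5 and RNA5S6 ended short of the gene, and 10 copies had a PR region over the gene body itself. Of the other genes of at most 200 bp, 2.51% had a PR region under vehicle and 5.66% under P4, and without tRNA genes 1.67% and 4.58%, while the tRNA genes alone stood at 16.3% and 23.5%. The 6 vehicle copies all had PR under P4 too, where RNA5S2, RNA5S3, RNA5S5, RNA5S6, RNA5S8, RNA5S11 and RNA5S13 also had it. The order of the treatments turned when the longer PR list was shortened, by −log10 q, to the length of the other: the count was then 6 under vehicle and 2 under P4.

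The scores of these PR regions were in the lower and middle range of their lists. Under vehicle the −log10 q was 7.33 at RNA5S4, 5.15 at RNA5S7, 4.68 at RNA5S10, 3.79 at RNA5S14, 3.38 at RNA5S12 and 2.91 at RNA5S17, and the median copy lay at percentile 35.8. Under P4 it ran from 2.52 at RNA5S5 to 11.7 at RNA5S2, with RNA5S13 next at 11.1 and a median of 5.25, at percentile 53.2. By fold the same regions ranked far lower, since folds of 1.86 to 2.52 under vehicle and 1.67 to 2.64 under P4 put the median copy at percentile 0.94 and 1.31. With regions under a −log10 q of 5 left out, PR was called at 2 copies under vehicle and 7 under P4.

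RNA5S1, RNA5S9, RNA5S15 and RNA5S16 had no PR region in either list. They included the 3 copies with the lowest POLR3A −log10 q. At RNA5S1 the nearest PR regions ended at 228609932 under vehicle and 228609912 under P4, below the 100-bp window.

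PR summits were placed differently from POLR3A summits. All 6 vehicle summits and all 13 P4 summits lay below the gene's midpoint, at a median distance of 199.5 bp and 185 bp. Only the vehicle summit at RNA5S4, 31 bp below the midpoint, was inside a gene body, and no P4 summit was. When the summit itself had to lie within 100 bp of the gene, PR was at 2 copies under vehicle and 4 under P4. At RNA5S13 under P4, for example, the PR summit was 201 bp below the midpoint and the POLR3A summit 3 bp above it. With regions under a −log10 q of 5 left out, the P4 median was 182 bp, while the vehicle median was 111 bp and rested on 2 copies, RNA5S4 at 31 bp and RNA5S7 at 191 bp.

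The stronger PR regions of the array lay in the spacers. Of 17 PR regions over the array under vehicle, 11 reached no gene window, with a median −log10 q of 13.3 and a highest of 35.4, against a median of 4.24 and a highest of 7.33 for the 6 at genes. Under P4, 15 of 28 were in spacers, with a median of 15.0 and a highest of 24.6, against 5.25 and 11.7 for the 13 at genes. Their median fold was 2.97 under vehicle and 2.92 under P4, below the medians of those lists over all regions, 3.78 and 3.55.

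POLR3A showed the opposite order between gene and spacer. Besides the 17 gene regions there were 17 spacer regions under vehicle, with a median −log10 q of 21.1 and a highest of 48.9, and 16 under P4, with a median of 15.6 and a highest of 37.1. These were lower than any of the gene regions of the same list. Their median fold was 3.74 under vehicle and 3.24 under P4, against 15.5 and 14.0 at the genes.

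Spacer summits of both antibodies recurred at the same place of the repeat unit. Counted from the start of the copy below, a band from 700 to 1100 bp, set after the summits had been seen, held 11 of 17 spacer summits for POLR3A under vehicle, 12 of 16 under P4, 8 of 11 for PR under vehicle and 12 of 15 under P4. The median offsets in that order were 778, 790, 786 and 793 bp. A second place, from 1100 to 1300 bp, held 2, 4, 3 and 3 summits, and the remaining 4 spacer summits, all of POLR3A under vehicle, lay from 1357 to 1632 bp. The labels do not say how reads that fit several repeat units were placed. Units counted here and below may therefore share reads and are not independent loci.

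The first band was filled in the same units by both antibodies. Above RNA5S1, RNA5S4, RNA5S6, RNA5S7, RNA5S9, RNA5S10, RNA5S11 and RNA5S12 all 4 lists had a summit there, 8 of 17 units, and within a unit the 4 summits spanned 19 to 63 bp. RNA5S2, RNA5S3, RNA5S13 and RNA5S15 had it in some lists. Above RNA5S13 the band had no POLR3A summit under vehicle, but it was covered by the 1919-bp POLR3A region whose summit lay at RNA5S14. The units above RNA5S5, RNA5S8, RNA5S14, RNA5S16 and RNA5S17 had it in none.

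By −log10 q, the spacer regions that scored highest were also shared. Above RNA5S11 the −log10 q was 48.9 for POLR3A and 29.2 for PR under vehicle, and 27.8 and 24.6 under P4. Above RNA5S6, where the summits lay farther out at 970 to 1032 bp, it was 47.5 and 35.4 under vehicle and 37.1 and 19.3 under P4. These were the highest spacer values of −log10 q in each list except PR under P4, where the region above RNA5S9, at 23.1, came between them. By fold the order differed. The region above RNA5S6 had 3.74 for POLR3A under vehicle, 3.09 for POLR3A under P4 and 2.28 for PR under P4, at or below the spacer medians. For PR under vehicle it had 3.05, just above the spacer median of 2.97. The highest spacer folds were 5.55 above RNA5S1 for POLR3A under vehicle, 3.82 above RNA5S7 for POLR3A under P4, 3.77 above RNA5S11 for PR under vehicle and 3.75 above RNA5S9 for PR under P4. All 11 PR spacer regions under vehicle and 14 of 15 under P4 overlapped a POLR3A region of the same treatment. In the other direction, 10 of 17 POLR3A spacer regions under vehicle and 14 of 16 under P4 overlapped a PR region. An input list was not used here, so whether reads without antibody also gather at these places was not tested.

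**Figure D2:**
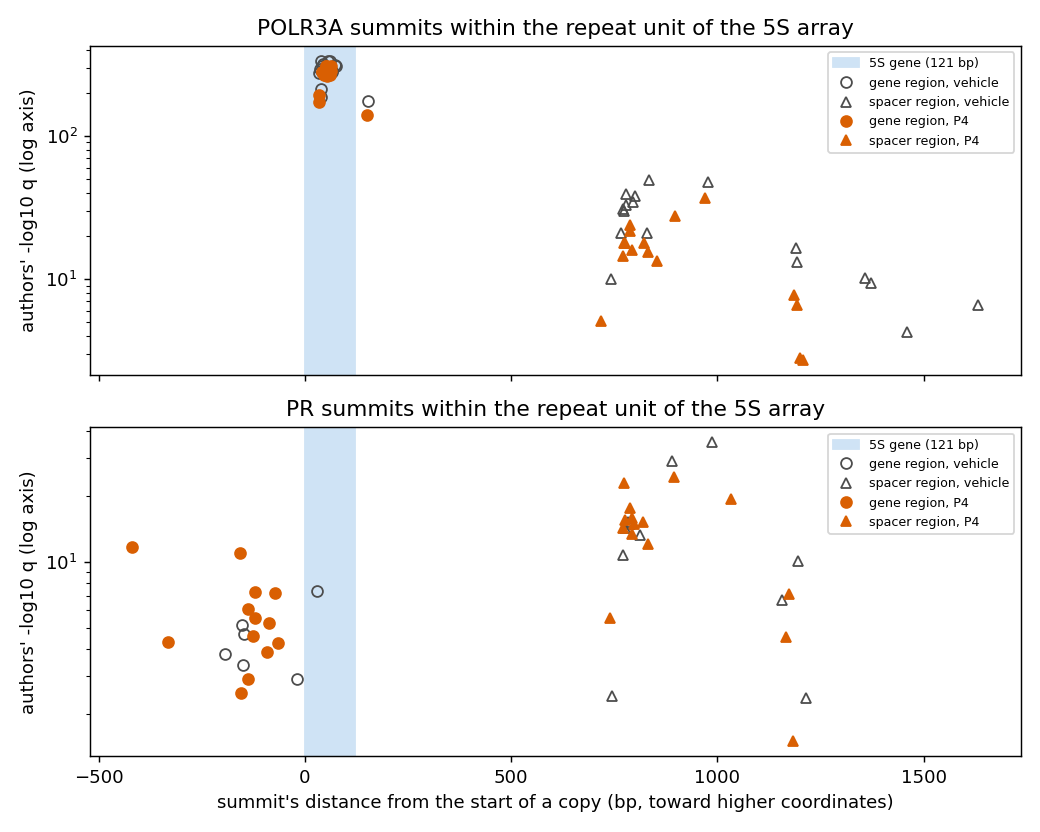
Summits of all regions over the array, placed by distance in bp from the start of a copy, with summits far above a copy drawn below the next copy by the median spacing of 2241 bp; the height is the authors' −log10 q on a log axis, POLR3A above and PR below, open symbols for vehicle and filled ones for P4, circles for regions at a gene window and triangles for spacer regions. POLR3A is highest on the gene (blue band), while PR is highest in the spacer, where both antibodies have spacer summits.

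Summits at these offsets were also found below the first annotated copy. With a unit start placed 2241 bp below RNA5S1, PR summits lay at offsets of 757 and 1190 bp under vehicle and 795 and 1168 bp under P4, and POLR3A summits under P4 at 787 and 1186 bp. The PR scores were 12.2 under vehicle and 17.4 under P4 at the first of these places, and 2.79 and 3.36 at the second. Another PR summit of that stretch in each list lay outside both bands, at 1745 bp under vehicle and 1759 bp under P4, with scores of 12.0 and 15.9, close to those of the first place. No 5S gene or pseudogene is listed in that stretch, and under vehicle the 1966-bp POLR3A region over RNA5S1 reached down to 228608670. Above RNA5S17, no region of any list followed within 9 kb: the nearest started 9417 bp after the array for PR under P4, and 67405, 75371 and 75252 bp after it for POLR3A under vehicle, POLR3A under P4 and PR under vehicle.

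Regions covered 60.3% of the array span for POLR3A under vehicle, 40.7% under P4, 13.9% for PR under vehicle and 22.7% under P4. In the 100 kb below the array, which holds the stretch before RNA5S1, the shares were 2.50%, 2.20%, 0.76% and 0.97%. In the 100 kb above it they were 0.56%, 0.75%, 0.43% and 1.49%. The covered share was higher over the array than in either flank in all 4 lists.

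The 5S pseudogenes were mostly free of regions. Of 144, 134 had no region in any list. POLR3A reached 2 under vehicle, 1.39% (95% Wilson interval 0.38 to 4.92, which covers counting error over genes only), and 5 under P4, 3.47% (1.49 to 7.87), both below the 7.58% and 7.29% of the other genes of at most 200 bp and, under P4, close to the 3.4% without tRNA genes. PR reached 0 under vehicle, with a Wilson upper bound of 2.60% (a count of 0 allows up to 2.08% by the limit of 3 counts), and 5 under P4, 3.47% (1.49 to 7.87), against 2.51% and 5.66%. Beside these small genes the pseudogene shares were near or under the background. The Wilson intervals of POLR3A under P4 and of PR in both lists take in their backgrounds. Only that of POLR3A under vehicle, with an upper end of 4.92%, lies under its background of 7.58%, and it takes in the 3.28% without tRNA genes.

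**Figure D3:**
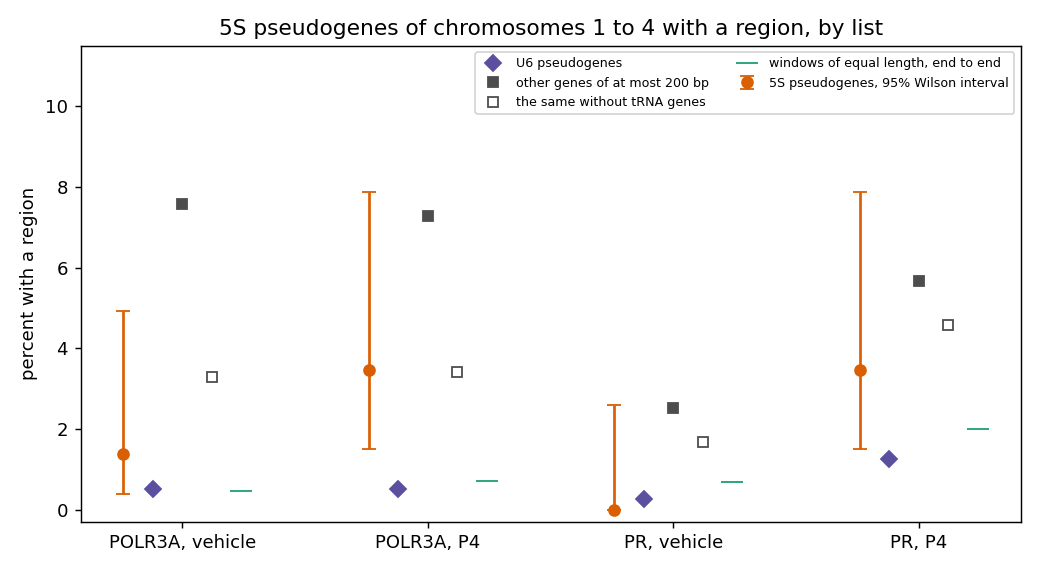
Percent of the 144 5S pseudogenes with a region in each list (orange, with 95% Wilson intervals), beside U6 pseudogenes, other genes of at most 200 bp with and without tRNA genes, and windows of 311 bp laid end to end along chromosomes 1 to 4. The 5S pseudogenes lie between 0% and 3.47%, and the small genes with tRNA genes included lie above them in every list.

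U6 pseudogenes, scattered copies of another RNA polymerase III gene, gave a second point of reference. Of 398 on chromosomes 1 to 4, POLR3A reached 2 in each list, 0.50%, and PR reached 1 under vehicle, 0.25%, and 5 under P4, 1.26%. Windows of 311 bp laid end to end along the 4 chromosomes had a POLR3A region in 0.459% and 0.715% of cases and a PR region in 0.695% and 2.01%. The POLR3A share of the 5S pseudogenes under P4, 3.47%, was above both of these, and the lower end of its interval, 1.49%, was too. The vehicle share, 1.39%, was also above both, but the lower end of its interval, 0.38%, was below both. The U6 share rests on 2 genes in each list and has a counting error of its own. The P4 share was thus near the background of small genes without tRNA genes and above those of U6 pseudogenes and windows. It rested on 5 pseudogenes, which fell to 2 at a −log10 q of at least 5 and to 3 at equal list length. For PR the 5S pseudogene share under P4, 3.47%, was also above both the U6 share of 1.26% and the window share of 2.01%. The lower end of its interval, 1.49%, was above the U6 share and below the window share. Under vehicle PR reached no 5S pseudogene.

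Of the 6 pseudogenes with POLR3A in either list, only RNA5SP19 had it in both. It lies at 228555793 to 228555901 on chromosome 1, 54365 bp below the array. Its POLR3A region had a fold of 7.74 and a −log10 q of 26.4 under vehicle, at percentile 97.2, and a fold of 8.41 and a −log10 q of 30.5 under P4, at percentile 98.6. The summits were 23 and 26 bp below the midpoint, inside the gene body, as at the array copies. PR had no region there. The POLR3A scores of RNA5SP19 were lower than those of any array copy in the same list. The next POLR3A region began 2047 bp above it under vehicle and 2084 bp above it under P4, with −log10 q of 75.0 and 60.2, where the table lists no gene.

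RNA5SP18 is the pseudogene nearest to the array, 1754 bp above its end at 228647912 to 228648032, and is 121 bp long like the array copies. It had no region in any list. RNA5SP78, 903747 bp above the array and inside the span of ABCB10, a mitochondrial transporter gene, had POLR3A under P4 alone, with a fold of 3.83 and a −log10 q of 4.85, at percentile 77.2. Its summit was 1.5 bp below the midpoint.

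The other POLR3A calls at pseudogenes scored lower than RNA5SP19 and came from very different ranks of their lists. RNA5SP67 on chromosome 1 (173921070 to 173921200) had a fold of 4.47 and a −log10 q of 6.45 under P4, at percentile 88.5, with the summit 46 bp below the midpoint. RNA5SP146 on chromosome 3 (157173918 to 157174040) had 3.64 under vehicle, at percentile 52.8, with the summit 25 bp above it. RNA5SP85 on chromosome 2 (11561661 to 11561779) had 1.80 under P4, at percentile 6.57, with the summit 2 bp below it. RNA5SP74 on chromosome 1 (204562413 to 204562521) had 1.50 under P4, at percentile 1.94, but that region began past the gene's end and had its summit 176 bp above the midpoint. POLR3A summits thus lay within the gene body at 5 of the 6 pseudogenes. With regions under a −log10 q of 5 left out, POLR3A was called at 1 pseudogene under vehicle and 2 under P4.

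RNA5SP85 was the only pseudogene with both factors. It lies inside the span of GREB1, a gene known to respond to oestrogen and progesterone. Its PR region under P4 was 696 bp wide, with a fold of 6.35 and a −log10 q of 16.2. The PR summit lay 563 bp above the pseudogene's midpoint, far from the POLR3A summit.

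At the 4 pseudogenes with PR alone, all under P4, PR was centred on the gene once. RNA5SP86 on chromosome 2 (20401627 to 20401724) had its summit 2.5 bp above the midpoint, with a −log10 q of 2.56. RNA5SP40 on chromosome 1 (9437669 to 9437778) had the highest PR score of the pseudogenes, 38.7, with a fold of 11.3, but its region began past the gene's end and peaked 306.5 bp above the midpoint. RNA5SP121 on chromosome 2 (227763052 to 227763152) had 3.36, with the summit 275 bp above the midpoint. Among all 5 PR calls, 1 summit lay within 100 bp of the gene.

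RNA5SP89 on chromosome 2 (28683976 to 28684083) had the second PR score of the pseudogenes, a −log10 q of 35.2 with a fold of 10.4. The region ran from 28683279 to 28684031 and peaked 220.5 bp below the midpoint, inside the promoter window of the non-coding gene LOC105374384. That window is shown because it holds the summit of a PR region at a member. It is the reference sequence of the RefSeq table for GRCh38.p14 at chr2:28683524-28683823, minus strand, from 250 bp before the gene's start to 50 bp after it, written 5′ to 3′:
LOC105374384: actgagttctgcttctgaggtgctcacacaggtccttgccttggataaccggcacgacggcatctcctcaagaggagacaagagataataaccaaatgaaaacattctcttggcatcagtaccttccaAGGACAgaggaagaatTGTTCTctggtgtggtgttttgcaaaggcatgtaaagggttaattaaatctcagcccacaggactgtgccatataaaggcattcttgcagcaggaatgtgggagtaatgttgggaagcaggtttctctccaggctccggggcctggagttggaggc
Capitals mark the 2 matches, on either strand, to TGTNCT, an arm of the element that PR is known to bind. They lie at bases 129 to 134 and 145 to 150 counted from the 5′ end and do not overlap, while the summit is at base 15. The element with both arms, searched on both strands as GNACA, any 3 bases and TGTNC, was not in this window. Of 34961 RefSeq promoter windows of this length, 41.4% held TGTNCT and 0.39% held the element with both arms, so a match to the short motif is common.

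**Figure D4:**
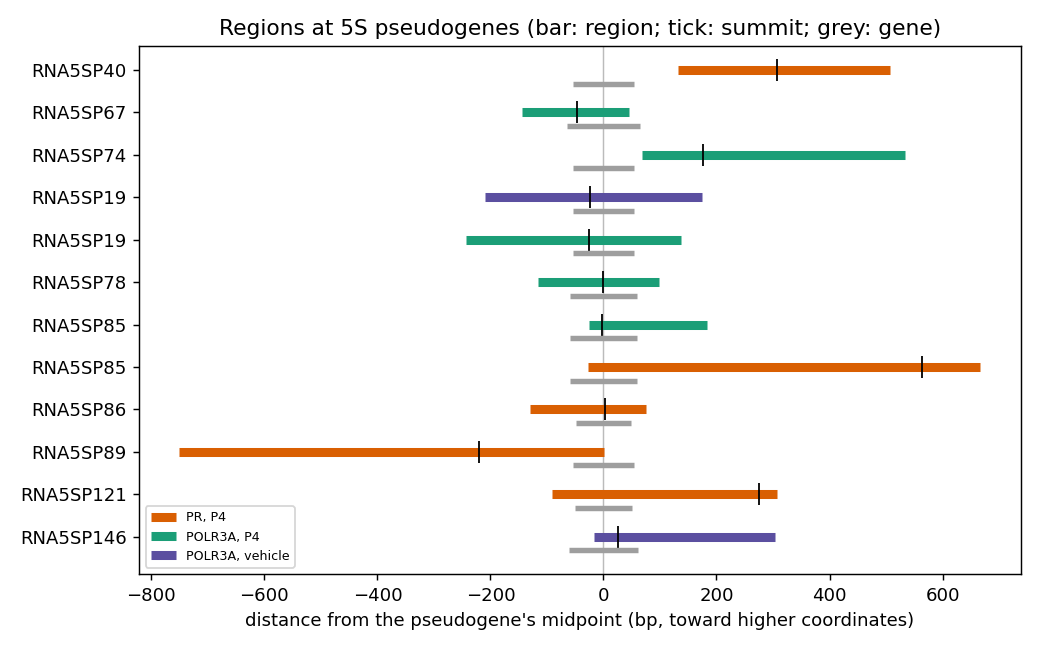
The regions at the 10 pseudogenes with a region in any list, drawn by distance in bp from the pseudogene's midpoint; bars are regions coloured by list, black ticks are summits and grey bars the pseudogenes. POLR3A summits lie on the gene except at RNA5SP74, while PR summits lie outside it except at RNA5SP86.

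The surroundings of the pseudogenes were read next. The 6 with POLR3A lay 3808 to 78832 bp from the nearest end of a protein-coding gene, with none within 1 kb, and at least 55401 bp from a tRNA gene. Of the 134 without any region, 5 lay within 1 kb of a coding gene end, a share too small for 6 pseudogenes to be set against. Within 5 kb lay 2 of the 6 and 15 of the 134. The median distances were 11288 bp for the 6 and 40691 bp for the 134, and the difference was not tested. Inside the span of a protein-coding gene were 2 of the 6 with POLR3A, and 63 of the 134 without a region.

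The genes of the 5S pathway were read over the gene body and the 100 bp on either side, in a list of 16 chosen by role. POLR3A was at 11 of 16 under vehicle and 9 under P4, where 39.9% and 44.5% of the 19821 protein-coding genes had a region. PR was at 6 under vehicle and 11 under P4, against 39.9% and 66.6%. Read over the promoter, 250 bp before to 50 bp after the start, POLR3A was at 7 and 6 of the 16 and PR at 3 and 6, against 17% and 15.7% of 22132 protein-coding promoters for POLR3A and 7.48% and 23.1% for PR.

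The top POLR3A scores at these genes lay far below those of the array copies, though mostly above the median of their list. Each is the highest of a gene's regions, which numbered 9 under vehicle and 15 under P4 at BRF1. Such a top score tends to exceed a median of single regions. Under vehicle the −log10 q ran from 2.38 at BDP1 to 9.79 at RPL5, with a list median of 3.53. Under P4 it ran from 2.15 at GTF3C2 to 7.95 at BRF1, with a list median of 3.22. GTF3A, which encodes TFIIIA, had a top POLR3A score of 4.19 under vehicle and 2.21 under P4, and top PR scores of 26.0 and 108.5. BRF1, which encodes a TFIIIB subunit, had PR values of 70.2 and 186.2 over a span of 106304 bp, with 9 and 25 PR regions. GTF3C2, a TFIIIC subunit, was the only gene with a region of every list at its promoter, at 6.01 and 2.15 for POLR3A and 15.8 and 29.6 for PR. GTF3C6, another TFIIIC subunit, had no region in any list.

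The genes for proteins that bind 5S RNA or help to assemble it into the ribosome followed no single pattern. RPL5 had POLR3A values of 9.79 under vehicle and 4.72 under P4 and no PR region. At RPL11 the POLR3A values were 5.63 and 3.74, and those of PR were 2.98 and 14.0. RRS1, an assembly factor gene, had POLR3A values of 3.40 and 5.41. It had no PR region under vehicle and 3 under P4, with a top score of 60.1. SSB, which encodes La, had no region in any list, and neither had RPF2 or HEATR3.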

How the data were processed

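Peak lists were made by the authors from reads, and the submitters' processing notes name cutadapt, Bowtie2, MACS2 and the build hg38, without versions or roles. Which control was used and how replicates were joined are not given in the sources used here. The deposited fold enrichment is a ratio and the deposited score is a −log10 q-value, per the layout of the files; the highest q-value was 0.0497. The deposited display score was not used, and summit positions were taken as deposited.

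Members came from the RefSeq table of GRCh38.p14. Genes of alternate sequences were dropped where start positions first fell back, which kept 58419 of 59098. Members and gene lists were chosen with earlier results of these data known. Overlap meant at least 1 bp. Percentiles rank a region within its own list. Counts equalled those of bedtools 2.31.1 in 4 of 4 lists, and planted overlaps were recovered in 20 of 20 simulated sets. Python 3.11.15 and pandas 2.3.3 were used. Named pseudogenes were those with POLR3A in either list and then those with PR alone. A planned comparison of 5S sequences was not run, as these sequences were not used here. Alternatives changed the window, the score threshold, the list length, the overlap rule and the rank.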

Additional observations from a re-analysis of the deposited data

How the results depend on the processing

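No paired analysis was possible because each antibody and treatment has 1 list with no replicate in it, and for the same reason no replicate could be left out. The POLR3A counts over the array stayed at 17 in both lists under all 7 alternatives. PR counts over the array moved from 6 under vehicle to 2 at a −log10 q of at least 5, 0 at 10 and 2 by summit, and from 13 under P4 to 7, 2 and 4, with 2 at equal list length. Pseudogene counts for POLR3A moved from 2 to 1 at both thresholds under vehicle, and from 5 to 2, 1 and, at equal length, 3 under P4. For PR they moved from 0 to 2 with 500 bp on each side, and under P4 from 5 to 8 with 500 bp, 3 at both thresholds and at equal length, and 1 by summit. Ranked by fold, the array's median percentiles were 99.0 and 99.4 for POLR3A and 0.94 and 1.31 for PR. The median PR summit distance at the array under vehicle was 70 bp with summits within 200 bp and 111 bp at a −log10 q of at least 5. At pseudogenes under P4 the median was 283 bp over the 6 with a PR summit within 500 bp of the midpoint. That set leaves out RNA5SP85, whose summit was 563 bp away, and holds pseudogenes with no counted region. With summits within 200 bp it was 2.5 bp, the distance at RNA5SP86 alone. The background shares by windows were 0.459%, 0.715%, 0.695% and 2.01%, and without tRNA genes, an alternative added after the data were seen, 3.28%, 3.4%, 1.67% and 4.58%. Placing array regions by summit, or keeping −log10 q of at least 5, both added later, left the order of gene and spacer unchanged in all 4 lists. By summit the PR gene regions numbered only 2 under vehicle and 4 under P4. The cause of these moves was not tested beyond the construction of each alternative.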
